A study of Mus musculus with 6 samples.

Results

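The genes described here build, turn over and pull on actin filaments. They are 59 genes listed by symbol: the actin isoforms, the subunits of the Arp2/3 complex, WASP and WAVE factors, formins and Ena/VASP proteins, turnover factors, bundling and cross-linking proteins, myosin II and tropomyosin genes, and the kinases that act on cofilin and myosin. Rows were matched by symbol, from a list drawn up with earlier results of these data known, and all 59 were found among the 21960 genes of the counts. The question asked of them was whether RNA levels of the actin machinery, and the balance between related genes within it, differed between mock and p140Cap TuBo cells.

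TuBo cells were grown out of a mammary tumor of the BALB/c-MMTV-NeuT strain, whose rat neu oncogene (the counterpart of HER2) is driven by the MMTV promoter. p140Cap, the product of Srcin1, is an adaptor protein with a known part in Src signaling and the cytoskeleton. The p140Cap cells were TuBo cells infected with a pBabe-puro retrovirus that carries p140Cap cDNA. They were selected with puromycin, grown from single cells and used as a pool of positive clones, while what the mock cells carry was not given in the sources used here. Both groups shared the neu background and the labelled genotype of the mock libraries is wild type. There were 3 mock and 3 p140Cap libraries. The labels name cell lines in one field and mice in another, and the libraries were read as cultured TuBo cells. Nothing states that libraries of a group came from separate cultures, so the p-values measure only the spread between these libraries, which may be technical.

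Cells make new actin filaments in a pair of main ways. The Arp2/3 complex, switched on by WASP and WAVE proteins, grows branches from the sides of existing filaments, whereas formins and Ena/VASP proteins extend straight filaments from their tips. Profilin and thymosins hold the pool of actin monomers, cofilin and gelsolin sever filaments, and capping proteins stop their growth. Filamins, plastins and ERM proteins tie filaments to each other or to the membrane, and non-muscle myosin II pulls on them. Many of these genes are known targets of the transcription factor SRF, which binds a short element called the CArG box and is controlled by the actin monomer pool through MRTF cofactors.

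CArG boxes were looked for near the start of each member, because many of these genes are known targets of SRF. The windows ran from 250 bases before to 50 bases after each start, in RefSeq on GRCm38.p6, which is the mm10 assembly, and a gene with several transcript starts had a window at more than 1 of them. The box was searched under its name as the usual 10-base SRF site, whose pattern reads alike on both strands. Of the 52 members with a window, 5 held a box (9.62%), and 488 of 27025 genes with a window did so (1.81%). The 30 bases around each box are given 5′ to 3′ on the gene's strand, with the box in capitals. The gamma actin gene Actg1 held it 90 bases before the start (chr11:120348566-120348595, minus strand), at the outer end of the gene. Myl6, a myosin light chain, held it 50 bases before an alternative start that lies inside the annotated gene (chr10:128493040-128493069, minus strand, in a gene that spans 128490859 to 128493886), and its window at the outer end held none. For Myl9, the smooth muscle and non-muscle regulatory light chain, it lay 161 bases before the transcript start used here (chr2:156775293-156775322, plus strand), at 156775464, which is downstream of the outer end of the gene at 156775408. The box of Vil1 (villin) lay 73 bases before the start (chr1:74409301-74409330, plus strand), and that of Arpc4, an Arp2/3 subunit, 250 bases before (chr6:113377863-113377892, plus strand).
Actg1: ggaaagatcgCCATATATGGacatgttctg
Myl6: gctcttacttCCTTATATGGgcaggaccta
Myl9: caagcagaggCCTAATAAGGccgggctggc
Vil1: ccctatcttcCCTTATATGGtgaaggaagt
Arpc4: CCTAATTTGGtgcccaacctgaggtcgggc
A match describes letters in these windows and no binding was measured. Tagln, Actb, Nckap1, Cyfip1, Rock1, Arpc5l and Diaph1 had no window to search.

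The labels were checked first. Srcin1 was at 15.6, 12.8 and 16.6 CPM (reads scaled to a common library total after TMM adjustment) in the mock libraries and at 2265, 2519.5 and 2244 CPM in the p140Cap libraries (log2 fold change 7.29, SE 0.09, adjusted p = 7.05e-19 in edgeR's quasi-likelihood test), and these reads can come from the introduced cDNA as well as from the gene. Of the members described by library below, Actg1, Arpc5l, Diaph3, Fmnl2, Fmnl3, Gsn, Limk2, Myh9 and Wasl overlap another annotated gene on their own strand, to which some of their reads could belong. Library totals lay between 33058719 and 75506562 reads in mock and between 13770385 and 15364850 reads in p140Cap, so every mock library was deeper. Of 8 epithelial markers 5 were tested (Epcam, Cdh1, Krt8, Krt18 and Erbb2) and Krt5, Krt14 and Krt19 were near 0, and the list had a summed level of 5245 to 5570 CPM in mock and 6184 to 6339 CPM in p140Cap. Of 11 fibroblast and smooth muscle markers 4 had no read in any library, and the sum of the list was 212.5 to 232.1 CPM in mock and 270.7 to 293.6 CPM in p140Cap, nearly all of it Vim. Of 9 leukocyte markers 6 had no read, Ptprc among them, and the summed level was 2.08 to 2.34 CPM against 3.23 to 4.09 CPM, nearly all of it Cd68. The 5 endothelial markers summed to 0.210 to 0.503 CPM against 0.477 to 0.735 CPM. The part of these list differences in the results below was not tested, and in bulk RNA fewer cells of a type and less RNA per cell cannot be told apart.

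The actin genes moved in small steps and in both directions. Of the 59 members 54 had enough reads to be tested, and 35 of these passed an adjusted p of 0.05 (64.8%), against 71.1% of the 11800 genes tested in all. In p140Cap libraries 21 members were lower (38.9%, against 35.9% of all genes) and 14 were higher (25.9%, against 35.2%). Thus members were called no more often than genes at large. Of the called members, 28 changed by under 1.5-fold (80.0%, against 64.5% of the 8388 genes called in all) and 7 by 1.5-fold or more. A log2 fold change of at least 1 in size was reached by 1 member, Wasf1 (1.85%), against 9.97% of all genes. Without mock library 3 or p140Cap library 3, or with library totals alone, 2 members reached it, the other being Myh10. The median log2 fold change of the members was -0.04 and their median size of change was 0.22, against 0.00 and 0.32 over all genes. No overlap between the 2 groups was found for 39 of the 54 tested members (72.2%, against 73.4% of all genes), which were all 35 called members and Diaph1, Capza1, Capzb and Tpm4.

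Most actin genes are abundant, so the members were also set beside genes of like level, a description added after seeing the data. Among genes with a mean of at least 50 CPM there were 47 members and 4849 genes in all. Of these members 61.7% were called, against 74.6% of the genes, and their median size of change was 0.19 against 0.25 on the log2 scale. None of these members reached a log2 fold change of 1 in size, against 3.03% of the genes. The reads on the 59 members made up 1.96%, 1.95% and 2.01% of the mock libraries and 1.71%, 1.76% and 1.70% of the p140Cap libraries.

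**Figure D1:**
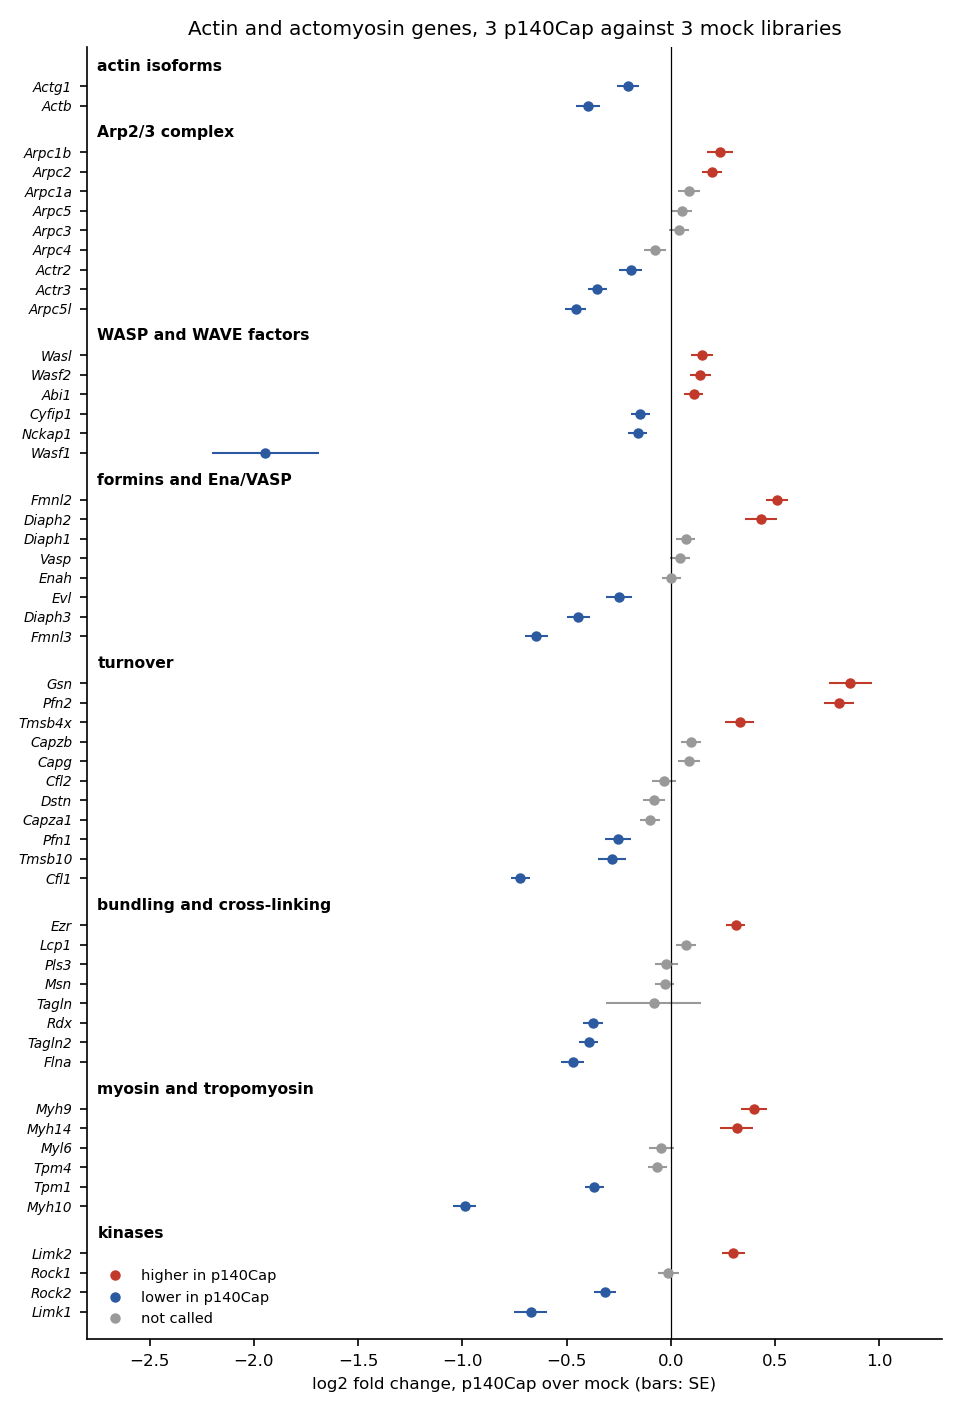
Log2 fold change (p140Cap over mock, horizontal axis) of the 54 tested members, grouped by role, with bars for the SE and colors for higher, lower and not called at an adjusted p of 0.05. Most members lie close to 0, both directions occur in every group except the actin isoforms, and Wasf1 (-1.95) and Myh10 (-0.99) lie farthest to the left.

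Both cytoplasmic actins were lower in p140Cap. Actb encodes beta actin (chr5:142903115-142907976, mm10) and Actg1 gamma actin (chr11:120345687-120348495), and together they supply nearly all the actin of a non-muscle cell. Actb was at 1778, 1718 and 1960.1 CPM in the mock libraries and at 1333, 1473 and 1332 CPM in the p140Cap libraries. Every p140Cap value lay below every mock value, the mean falling from 1819 ± 126 to 1379.5 ± 81.4 CPM (SD, n = 3 for these and all means below; log2 fold change -0.40, SE 0.06, adjusted p = 1.01e-05 in edgeR's quasi-likelihood test, where p was adjusted over all genes by Benjamini-Hochberg). The same test gave every adjusted p below, and a signed value alone in parentheses is a log2 fold change. Actg1 was at 4529, 4506 and 4834 CPM in mock and at 3866, 4330.2 and 3833 CPM in p140Cap, a smaller step again without overlap (log2 fold change -0.21, SE 0.05, adjusted p = 0.00283). Actg1 overlaps Gm55891 and Mir6935 on its strand, and the actins have many pseudogenes among which reads may be split. Per kilobase of exon, Actg1 had the highest level of all members, 1537 CPM per kb in mock and 1334 in p140Cap, followed by Actb with 622 and 472. The summed level of these 2 genes was 2160 ± 104 CPM per kb in mock and 1805 ± 120 in p140Cap, a ratio of 0.836. Acta2, the smooth muscle actin, was counted 2, 0 and 2 times in the mock libraries and had no read in any p140Cap library, and was too low to test.

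Of the 9 subunit genes of the Arp2/3 complex 2 were higher, 3 were lower and 4 were not called, where 71.1% of all genes were called, and the median log2 fold change was 0.04. Arpc5l, the alternative form of the ARPC5 subunit, was at 71.2, 75.1 and 73.4 CPM in mock and at 55.2, 51.3 and 53.3 CPM in p140Cap. These groups lay well apart, and Arpc5l had the largest change of the complex (log2 fold change -0.46, SE 0.05, adjusted p = 6.53e-07). It overlaps Wdr38 on the same strand. Its partner isoform Arpc5 had a log2 fold change of 0.05, adjusted p = 0.319, and Arpc5 took 86.0% ± 0.10 of the level per kb of this pair in mock and 89.8% ± 0.18 in p140Cap, without overlap. The actin-related core subunits Actr2 (log2 fold change -0.19, SE 0.05, adjusted p = 0.00409) and Actr3 (log2 fold change -0.35, SE 0.05, adjusted p = 4.33e-06) fell as well. Arpc1b, the ARPC1 isoform that is prominent in blood cells, was at 161, 153 and 179.6 CPM in mock and at 183, 207 and 190.5 CPM in p140Cap. The highest mock value and the lowest p140Cap value were close but did not overlap (log2 fold change 0.24, SE 0.06, adjusted p = 0.00272). Arpc2, which contacts the mother filament, rose by a like amount (log2 fold change 0.20, SE 0.05, adjusted p = 0.0016). The subunits that were not called had log2 fold changes of 0.09, adjusted p = 0.159 for Arpc1a, 0.04, adjusted p = 0.497 for Arpc3 and -0.08, adjusted p = 0.197 for Arpc4, whose promoter box is given above. The summed level of the 9 subunits was 453 ± 7.92 CPM per kb in mock and 453 ± 8.84 in p140Cap, a ratio of 1.00, and the groups overlapped.

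All 6 WASP and WAVE factors were called, 3 in each direction, where 71.1% of all genes were called, but 5 of the 6 changed by less than 0.2 on the log2 scale and 4 of the calls were lost in alternatives. Wasf1 (WAVE1, chr10:40883480-40938569), the WAVE form best known from brain, was counted 158, 86 and 63 times in mock and 11, 7 and 5 times in p140Cap, or 2.06, 2.16 and 1.89 against 0.725, 0.477 and 0.367 CPM. It was a low gene in both groups and had the largest fold change of all members (log2 fold change -1.95, SE 0.26, adjusted p = 3.89e-06). With at least 10 reads required in every library Wasf1 was not tested. Wasf2 (WAVE2), the widespread form, was at a mean of 71.1 ± 1.11 CPM in mock and 78.5 ± 2.66 CPM in p140Cap (log2 fold change 0.14, SE 0.05, adjusted p = 0.0157). Wasl (N-WASP) was at 82.1, 85.7 and 77.4 CPM in mock and at 92.1, 93.2 and 86.7 CPM in p140Cap. The groups lay apart by a small margin (log2 fold change 0.15, SE 0.05, adjusted p = 0.0186). Of the WAVE regulatory complex, Abi1 was slightly higher (log2 fold change 0.11, SE 0.05, adjusted p = 0.0434), whereas Cyfip1 (log2 fold change -0.15, SE 0.05, adjusted p = 0.0119) and Nckap1 (log2 fold change -0.16, SE 0.05, adjusted p = 0.00528) were slightly lower. The calls of Wasl, Wasf2, Cyfip1 and Abi1 were lost in some alternatives: without p140Cap library 2 the adjusted p was 0.0602 for Wasl and 0.0698 for Wasf2, without p140Cap library 3 it was 0.0805 for Cyfip1, and with a replicate block it was 0.0870 for Abi1. Abi1 also lost its call without mock library 1 (0.0976), 2 (0.0556) or 3 (0.112) and without p140Cap library 1 (0.150) or 3 (0.145). Wasl lost its call without mock library 3 (0.0753) or p140Cap library 1 (0.0719).

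Formins held opposite changes in closely related genes. The formin-like proteins Fmnl2 (chr2:52857717-53134202) and Fmnl3 (chr15:99317210-99370521) are close relatives that elongate filaments in lamellipodia and filopodia. Fmnl2 was at 98.3, 101 and 88.9 CPM in mock and at 140.2, 135 and 135 CPM in p140Cap. Each p140Cap library was above each mock library (log2 fold change 0.51, SE 0.05, adjusted p = 2.26e-07). Fmnl3 went the other way, from 80.1, 77.9 and 77.8 CPM in mock to 49.5, 53.6 and 47.7 CPM in p140Cap, also with a clear gap (log2 fold change -0.65, SE 0.05, adjusted p = 1.81e-08). The diaphanous formins nucleate and extend straight filaments and likewise differed. Diaph3 was at 89.3, 93.4 and 83.0 CPM in mock and at 66.0, 64.0 and 65.4 CPM in p140Cap and did not overlap (log2 fold change -0.44, SE 0.05, adjusted p = 1.56e-06). Diaph2 was higher in p140Cap, 23.4 ± 2.25 CPM against 17.3 ± 0.963 CPM (log2 fold change 0.43, SE 0.08, adjusted p = 0.000104), and Diaph1 was not called (0.07, adjusted p = 0.183). The 3 diaphanous genes together came to a ratio of 0.948 per kb. Of the Ena/VASP proteins, which protect filament tips from capping, Evl fell (log2 fold change -0.25, SE 0.06, adjusted p = 0.00232), while Enah (0.00, adjusted p = 0.974) and Vasp (0.04, adjusted p = 0.443) were not called.

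Among 12 turnover factors 11 were tested, of which 3 were higher, 3 were lower and 5 were not called, against 71.1% called of all genes. Some of the largest changes of the members were among them. Cfl1 (cofilin 1, chr19:5490455-5494031) severs aged filaments and is the dominant cofilin of non-muscle cells. It was at 1331, 1362 and 1373 CPM in mock and at 821, 814 and 829.7 CPM in p140Cap. The libraries of each group were tight and far apart (log2 fold change -0.72, SE 0.04, adjusted p = 4.9e-10). Cfl1 lies on chromosome 19, where the 424 tested genes had a median log2 fold change of -0.34, and it is the one tested member on that chromosome. The part of the chromosome in its change was not tested. Its relatives Cfl2 (-0.03, adjusted p = 0.647) and Dstn, or destrin (-0.08, adjusted p = 0.184), were not called and summed to 141 CPM per kb in mock and 134 in p140Cap with overlap. With Cfl1 included the 3 genes summed to 576 ± 9.35 and 398 ± 10.5 CPM per kb, a ratio of 0.691, the lowest of the families summed.

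The monomer-binding proteins changed in opposite pairs. Pfn1, the general profilin, was at a mean of 424 ± 31.6 CPM in mock and 356 ± 25.2 CPM in p140Cap (log2 fold change -0.25, SE 0.06, adjusted p = 0.00144). Pfn2 (chr3:57841895-57847757), the profilin known best from neurons, was at 14.1, 14.1 and 14.7 CPM in mock and at 26.7, 22.5 and 25.6 CPM in p140Cap. It rose in every p140Cap library (log2 fold change 0.81, SE 0.07, adjusted p = 5.31e-08) but remained far below Pfn1, with 97.9% ± 0.11 of the pair's level per kb held by Pfn1 in mock and 95.6% ± 0.64 in p140Cap. Tmsb4x (thymosin beta 4), which sequesters monomers, was at 188 ± 10.5 CPM in mock and 237 ± 27.2 CPM in p140Cap (log2 fold change 0.33, SE 0.07, adjusted p = 0.000413). Its relative Tmsb10 was lower, 122 ± 11.6 CPM in mock and 100.3 ± 6.45 CPM in p140Cap (log2 fold change -0.28, SE 0.07, adjusted p = 0.00109). The sum of these thymosins overlapped between the groups, and that of the profilins came to a ratio of 0.858 without overlap.

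Gsn (gelsolin, chr2:35256359-35307902), which severs and caps filaments in response to calcium, had the highest positive change of all members. It was at 4.44, 4.60 and 4.77 CPM in mock and at 8.77, 8.31 and 7.86 CPM in p140Cap, from 340, 183 and 159 and 133, 122 and 107 reads. It was thus a gene of low level that was higher in every p140Cap library (log2 fold change 0.86, SE 0.10, adjusted p = 1.04e-06). Its relative Capg, which caps without severing, was not called (0.09, adjusted p = 0.144), nor were the capping protein subunits Capza1 (-0.10, adjusted p = 0.0717) and Capzb (0.10, adjusted p = 0.0901), although neither of these 2 overlapped between the groups. Capza1 was called lower when library totals alone set the scale (adjusted p = 0.0186), and Capg was called higher without mock library 3 (adjusted p = 0.0481). Vil1, a villin of brush borders related to gelsolin, had 0, 6 and 2 reads in mock and none in p140Cap.

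**Figure D2:**
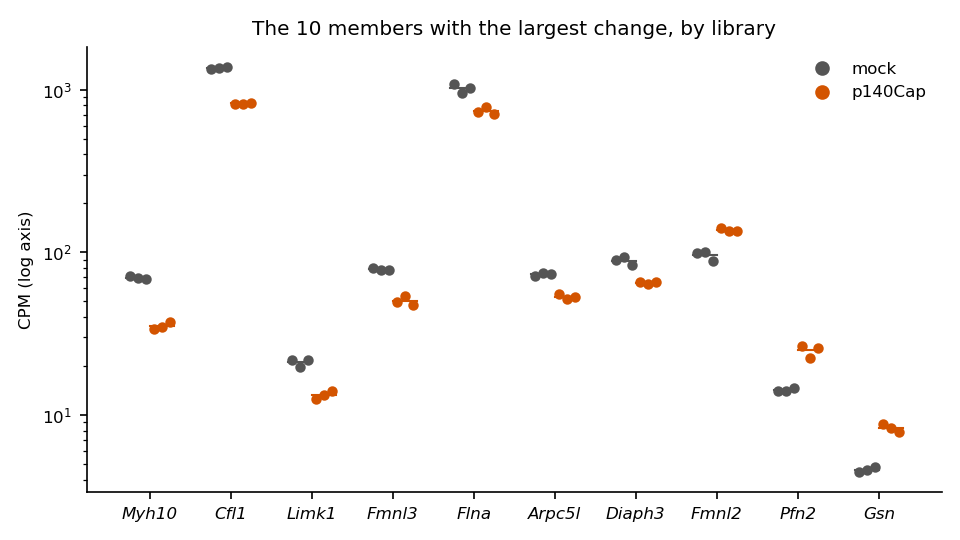
CPM on a log axis for the 10 members with the largest log2 fold change in size among called members at a log2 CPM averaging 1 or more, each dot a library and each short line a group mean. The 3 mock and 3 p140Cap dots of each gene lie apart, and the levels run from about those of Gsn (4.61 CPM in mock) to those of Cfl1 (1355 CPM in mock).

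Of the bundling and cross-linking genes 1 was higher, 3 were lower and 4 of the 8 tested were not called, against 71.1% called of all genes. Flna (filamin A, chrX:74223461-74249854), which joins filaments into an orthogonal net, was at 1089, 957 and 1025 CPM in mock and at 729, 781 and 706 CPM in p140Cap. The groups lay well apart (log2 fold change -0.47, SE 0.06, adjusted p = 1.09e-06). The ERM proteins ezrin, radixin and moesin link actin to the membrane, and they did not move together. Ezr was at 525, 518 and 539 CPM in mock and at 648, 669 and 645 CPM in p140Cap, a rise without overlap (log2 fold change 0.31, SE 0.05, adjusted p = 1.2e-05). Rdx fell (log2 fold change -0.37, SE 0.05, adjusted p = 2.02e-06) and Msn was not called (-0.03, adjusted p = 0.567), and the 3 summed to 130.2 CPM per kb in mock and 143 in p140Cap, a ratio of 1.10 with no overlap. Tagln2 (transgelin 2) fell from 212 ± 3.87 to 161 ± 3.44 CPM (log2 fold change -0.39, SE 0.05, adjusted p = 7.96e-07). Its relative Tagln, a smooth muscle gene, was low, with 87, 47 and 34 reads in mock and 15, 17 and 14 in p140Cap, and was not called (-0.08, adjusted p = 0.758). The plastins Lcp1 (0.07, adjusted p = 0.196) and Pls3 (-0.02, adjusted p = 0.732) were not called either. Lcp1 (L-plastin), best known from leukocytes, was at 423 CPM in mock and 444 CPM in p140Cap, while of the leukocyte markers Ptprc had no read and Cd68 was at 2.14 ± 0.176 CPM in mock and 3.76 ± 0.460 CPM in p140Cap (log2 fold change 0.83, SE 0.15, adjusted p = 0.000119). Fscn1 (fascin), a bundler of filopodia, had no read in mock and 1 in all of the p140Cap libraries.

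Myosin II heavy chains shifted in makeup. Myh9 and Myh10 encode non-muscle myosin IIA and IIB, and Myh14 encodes IIC. Myh10 (chr11:68691915-68816626) was at 71.4, 69.7 and 68.1 CPM in mock and at 33.9, 34.7 and 37.1 CPM in p140Cap. All p140Cap values were close to 2-fold below those of mock, and its log2 fold change missed 1 narrowly (log2 fold change -0.99, SE 0.05, adjusted p = 1.37e-10). Myh9 (chr15:77760585-77842175) was at 638, 549 and 648 CPM in mock and at 787, 865 and 766 CPM in p140Cap. It was higher in each p140Cap library (log2 fold change 0.40, SE 0.06, adjusted p = 3.22e-05). Myh14 was also higher, 185 ± 21.2 CPM in mock and 231 ± 23.8 CPM in p140Cap (log2 fold change 0.31, SE 0.08, adjusted p = 0.0016). The 3 genes summed to 69.0 ± 6.04 CPM per kb in mock and 84.4 ± 6.21 in p140Cap. Of this sum Myh10 took 8.71%, 9.72% and 8.01% in the mock libraries and 3.61%, 3.28% and 4.00% in the p140Cap libraries. Myh9 took 59.5% ± 0.70 in mock and 64.2% ± 0.83 in p140Cap, and Myh14 31.6% ± 1.13 and 32.2% ± 0.99.

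Of the light chains and tropomyosins, Myl6, Tpm1 and Tpm4 were tested and 1, Tpm1, was called. With the heavy chains, 6 of the 8 genes of this subgroup were tested. Of these 2 were higher, 2 were lower and 2 were not called, against 71.1% called of all genes. Myl6, the essential light chain shared by these myosins, was not called (-0.05, adjusted p = 0.519). Myl9 had 1 read in the mock libraries and none in p140Cap. Tropomyosins coat filaments and set which proteins can bind them. Tpm1 was at 637, 623 and 632 CPM in mock and at 491, 486 and 490.0 CPM in p140Cap, a gap far wider than the spread within either group (log2 fold change -0.37, SE 0.04, adjusted p = 1.38e-06). Tpm4 was not called (-0.07, adjusted p = 0.222), and Tpm2, a form of muscle and stromal cells, had 5, 0 and 4 reads in mock and 1, 4 and 3 in p140Cap. The tropomyosins together came to a ratio of 0.888 per kb.

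Of the 4 kinase genes 1 was higher, 2 were lower and 1 was not called, against 71.1% called of all genes. Limk1 and Limk2 phosphorylate cofilin and so switch off its severing. Limk1 (chr5:134656039-134689859) was at 21.7, 19.7 and 21.8 CPM in mock and at 12.5, 13.2 and 14.0 CPM in p140Cap. It fell in every p140Cap library (log2 fold change -0.67, SE 0.08, adjusted p = 8.54e-07). Limk2 was at 52.5, 50.9 and 56.8 CPM in mock and at 66.1, 67.7 and 63.1 CPM in p140Cap, a rise without overlap (log2 fold change 0.30, SE 0.06, adjusted p = 0.000143). Summed per kb, the LIM kinases overlapped between the groups, with 8.35 CPM per kb in mock and 8.51 in p140Cap. Rock1 and Rock2 encode kinases that drive myosin II contraction by raising the phosphorylation of its light chain. Rock2 fell (log2 fold change -0.32, SE 0.05, adjusted p = 4.28e-05) and Rock1 was not called (-0.01, adjusted p = 0.829).

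**Figure D3:**
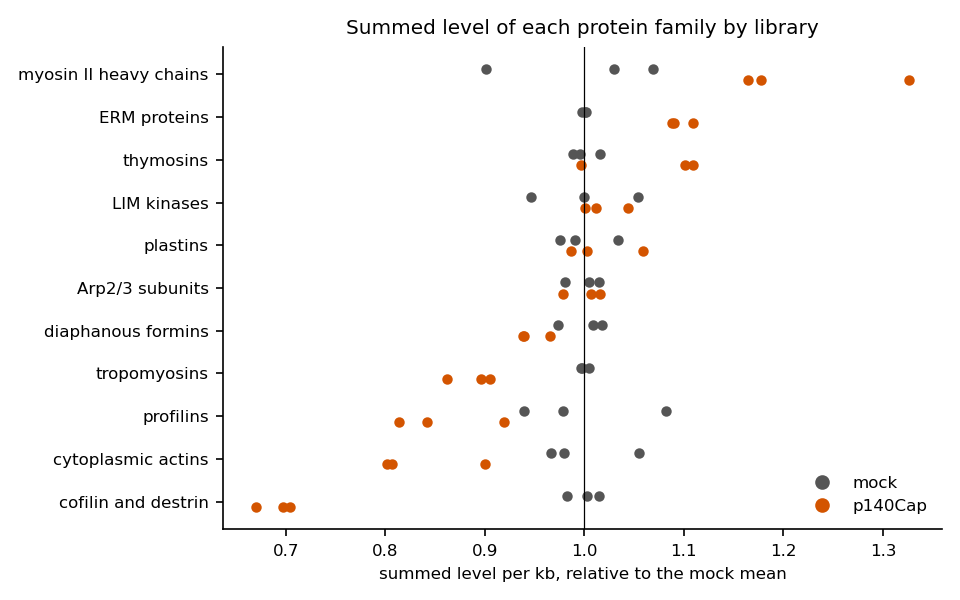
Summed level per kb of each protein family relative to its mock mean (horizontal axis), each dot a library. Cofilins with destrin lie lowest in p140Cap (ratio 0.691) and myosin II heavy chains highest (1.22), while Arp2/3 subunits, thymosins, plastins and LIM kinases overlap between the groups.

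The subgroups were set side by side. The median log2 fold change was 0.04 for nucleation by Arp2/3, -0.02 for WASP and WAVE factors, 0.02 for formins and Ena/VASP, -0.03 for turnover, -0.06 for bundling and cross-linking, -0.06 for myosin and tropomyosin, -0.16 for the kinases and -0.30 for the 2 tested actins. The range ran from -1.95 to 0.15 in WASP and WAVE factors, where 1 gene, Wasf1, set the lower end, from -0.46 to 0.24 in Arp2/3, from -0.65 to 0.51 in formins and Ena/VASP, from -0.72 to 0.86 in turnover, from -0.47 to 0.31 in bundling, from -0.99 to 0.40 in myosin and tropomyosin and from -0.67 to 0.30 in the kinases. The median size of change was smallest in WASP and WAVE factors (0.15) and highest in myosin and tropomyosin and in formins and Ena/VASP (0.34 in each). Medians this close to 0 changed sign in some alternatives for WASP and WAVE factors, formins and turnover: turnover had a median of 0.028 without Cfl1, 0.018 without mock library 2 and 0.0013 without p140Cap library 2. The differences between subgroups were not tested.

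The balance between related genes was followed as shares, whether or not each gene was called, as the part of a pair's summed level per kb that came from its first gene. Of 21 pairs listed 19 had enough reads, and in 16 the mock and p140Cap shares did not overlap. Of single genes 73.4% did not overlap, so a count of this kind says little of the pairs. With 3 libraries a group the exact two-sided permutation test cannot go below 0.1, which is the p of each of these 16 pairs (adjusted p = 0.119 over 19 pairs), so none passed. In 6 pairs the shift was at least 5 percentage points. Fmnl2 took 54.9%, 56.2% and 53.1% of the Fmnl2 and Fmnl3 level in mock and 73.8%, 71.5% and 73.8% in p140Cap, a shift of 18.3 points. Limk1 took 36.0%, 34.5% and 34.3% of the LIM kinase level in mock and 20.4%, 21.0% and 23.3% in p140Cap, a shift of -13.4 points. These 2 pairs had the widest gaps. Tmsb4x took 56.7% ± 3.65 of its pair with Tmsb10 in mock and 66.5% ± 4.01 in p140Cap, the narrowest of the 6 gaps against its spread. Diaph1 took 62.8% ± 1.61 of its sum with Diaph3 in mock and 70.7% ± 0.96 in p140Cap, and Myh9 took 87.1% ± 1.09 and 94.6% ± 0.49 of its sum with Myh10. Rdx took 39.6% ± 0.86 of its sum with Msn in mock and 34.1% ± 0.63 in p140Cap.

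**Figure D4:**
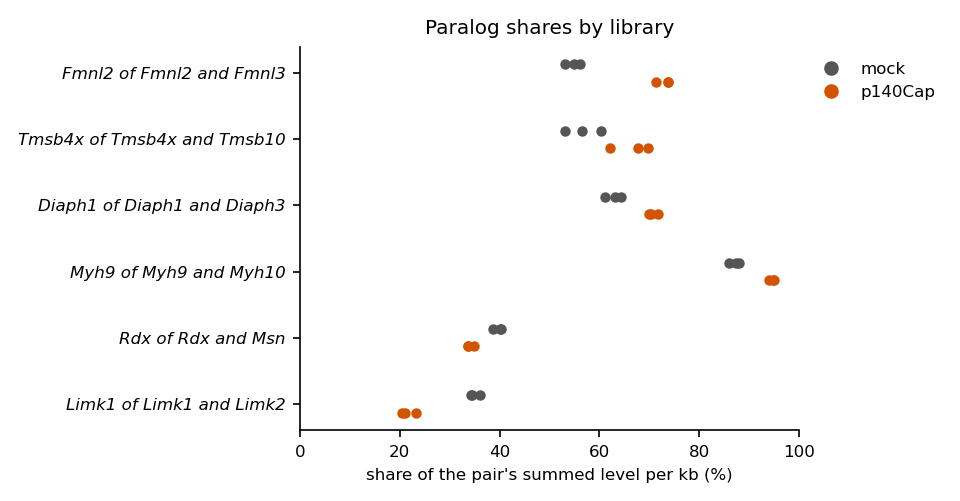
Share of the first gene in the summed level per kb of 6 paralog pairs (percent, horizontal axis), each dot a library. The p140Cap dots lie to the right of the mock dots for Fmnl2 (73.0% against 54.7%), Tmsb4x, Diaph1 and Myh9, and to the left for Rdx and for Limk1 (21.6% against 34.9%).

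The CArG boxes and SRF itself can be read beside these levels. Of the 5 members with a box, Actg1 fell, Myl6 (-0.05) and Arpc4 (-0.08) were not called, and Vil1 and Myl9 were too low to test. Srf was at a mean of 61.2 ± 6.47 CPM in mock and 44.5 ± 3.41 CPM in p140Cap (log2 fold change -0.46, SE 0.07, adjusted p = 3.86e-05). Of the MRTF genes, Mkl2 rose slightly (0.18, adjusted p = 0.0064) and Mkl1 was not called (0.01, adjusted p = 0.908). Smooth muscle members known as SRF targets (Acta2, Myl9, Tpm2 and Tagln) had at most 87 reads in any library.

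Other genes of the same pathways, from lists that hold no member, gave the following. Of 18 other nucleation factors tested 10 were higher and 4 lower, with a median log2 fold change of 0.30, where 35.2% of all genes tested were higher and 35.9% lower, shares that are the background for each list here. Wipf3, a WASP partner, rose (log2 fold change 1.07, SE 0.11, adjusted p = 1.86e-07), as did the formin Inf2 (0.80), whereas the formin Fhod3 (-1.74, from 103, 59 and 56 reads in mock and 8, 5 and 6 in p140Cap) fell. Wipf1, the WASP-interacting protein WIP, had 160 reads over the mock libraries and none in p140Cap, at least 15.5-fold higher in mock against a floor of 3 reads over the p140Cap group. Among 25 other turnover factors 8 were higher and 9 lower. At the upper end were Mical2 (0.87, from 151, 86 and 63 reads in mock and 57, 54 and 49 in p140Cap) and Coro7 (0.68). At the lower end were Scin (-2.12, from 42, 20 and 15 reads in mock and 1, 3 and 1 in p140Cap), a gelsolin relative near the limit of detection, and Coro2a (-1.59, from 297, 157 and 109 reads in mock and 19, 22 and 13 in p140Cap). Of 22 other cross-linkers 6 were higher, led by Espn (0.69) and Pls1 (0.45), and 7 lower, led by Ablim1 (-1.14) on chromosome 19 and the anillin gene Anln (-0.43). Of 20 other myosins and regulators 10 were higher and 4 lower, with a median of 0.21. Here Myo6 (0.75), the myosin that walks to the minus end, and Myo10 (0.50), a filopodial myosin, rose, while Myo19 (-1.18) and Myo5a (-0.82) fell. These lists carry no test of their own, and nothing particular to them is read from their medians.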

How the data were processed

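RNA of 3 mock and 3 p140Cap TuBo libraries was measured. Poly(A) RNA was selected per the labels, and per the paper's methods libraries were stranded (TruSeq), sequenced by Illumina with samples and controls mixed in each flow cell, and processed with docker4seq. The authors deposited counts, which are whole numbers of reads for 21960 genes per library, without normalization. The submitters' processing notes list STAR 2.5, RSEM and mm10 without a role, and the paper names GRCm39 for mouse. If the counts came from RSEM they would be rounded estimates, but the sources used here do not say so, nor whether counting used strand. Of the members, 23 overlap an annotated gene on the same strand and 44 on the other strand, so such reads may be shared. No column of another sample was present.

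Counts were analysed in R 4.3.3. Genes were filtered with filterByExpr, library sizes adjusted with TMM, and 11800 genes tested with edgeR 4.0.16 (quasi-likelihood test of group alone, Benjamini-Hochberg over all genes tested, threshold 0.05). CPM used the TMM-adjusted totals, and each SE is the size of the log2 fold change over the root of F. The common biological coefficient of variation was 4.57%. The script was tested on simulated counts for this comparison over 11735 genes, where 95.5% of 200 changed genes were recovered with a median absolute error of 0.05 (log2). Totals of 13770385 to 75506562 reads set the precision for low genes. CPM per kb divides by the union of exons in the GENCODE annotation of GRCm39, matched by Ensembl identifier (98.6% of genes). Gene positions and promoters are from RefSeq on GRCm38.p6. Exact permutation tests used SciPy 1.17.1 in Python 3.11.15.

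The members and all lists were chosen with earlier results of these data known. Values in every library are given for the actin isoforms, the 10 called members that changed most among those averaging a log2 CPM of 1 or more, and the extremes of each of the 8 subgroups. In the other lists up to 2 called genes at each end are named. A further list of pathway genes is not reported here. Tpm1, Srf, Mkl1 and Mkl2 were named after their values were seen, and so were members given as means. Alternatives were DESeq2 1.42.0, limma-voom (limma 3.58.1), RLE factors, library totals alone, other filters, a replicate block, thinning to 13770385 reads, leaving out each library, leaving out chromosome 19 and other gene lengths. The comparison at 50 CPM and the family sums were added after seeing the data. Replicate numbers were shared between groups, but same-numbered libraries had correlations of -0.01, -0.25 and -0.05, so the numbers were not taken as pairs.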

Additional observations from a re-analysis of the deposited data

How the results depend on the processing

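Of the 35 called members 31 kept their direction and call in every alternative that tested them, and the other 4 (Wasl, Wasf2, Cyfip1 and Abi1) changed by under 0.2 on the log2 scale. The counts of higher (14) and lower (21) members were 13 and 21 with DESeq2 and 11 and 22 with library totals alone or no filter, and ranged from 12 to 13 and from 20 to 21 when a library was left out. With a replicate block they were 13 and 21, though nothing states that the numbers pair the libraries. Members with a log2 fold change of at least 1 in size numbered 2 with library totals alone and with no filter, 0 with at least 10 reads in every library, and 1 to 2 when a library was left out (2 without mock library 3 or p140Cap library 3, where Myh10 passed 1). The median of all members was -0.075 with library totals alone and with no filter, and -0.060 to -0.030 when a library was left out. Subgroup medians, all small, moved with library totals alone to 3.6e-05 for Arp2/3, -0.055 for WASP and WAVE factors, -0.015 for formins and -0.094 for bundling. With no filter they were -0.43 for the actins, which then include Acta2, -0.0080 for formins and -0.086 for turnover. With at least 10 reads in every library WASP and WAVE factors, without Wasf1, had a median of 0.10. With thinning Arp2/3 was at 0.0025 and WASP and WAVE factors at 0.0072. Without Cfl1 turnover was at 0.028, and without a library it ran from -0.065 to 0.018 and bundling from -0.094 to -0.039. Signs of members not called also turned: Enah was at -0.035 with library totals alone, -0.028 with no filter and -0.0043 with the stricter filter, Tagln at 0.11 and Rock1 at 0.0079 with thinning. Without a library the ranges were -0.021 to 0.012 for Enah, -0.065 to 0.018 for Cfl2, -0.067 to 0.031 for Pls3, -0.11 to 0.032 for Myl6 and -0.052 to 0.020 for Rock1. The cause was not tested except where a dropped or added gene is named. With the longest transcript as gene length the Myh9 share moved by 6.01 points in place of 7.53. Library totals alone moved the median of all genes to -0.04 and no filter to -0.06. Depth limits Wasf1, Gsn, Tagln, the 5 untested members and, of the other genes, Scin, Fhod3, Wipf1, Coro2a and Mical2, where counts are low.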

Other observations

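The library with the highest value was counted for each gene. Of the 54 tested members 15 (27.8%) were highest in mock library 3 among the mock libraries and in p140Cap library 2 among the p140Cap libraries, against 2365 of 11800 genes tested (20.0%). These 15 were Actb, Actg1, Arpc1a, Arpc1b, Arpc4, Vasp, Evl, Pfn1, Capg, Capzb, Tmsb10, Ezr, Myh9, Myh14 and Limk2. For Actb this was 1778, 1718 and 1960.1 CPM in mock and 1333, 1473 and 1332 CPM in p140Cap. This was noticed in the data and carries no test.

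From the lists of other nucleation and turnover factors, the genes of this paragraph were named after their values were seen. Arpin, which inhibits the Arp2/3 complex, fell (log2 fold change -1.03, SE 0.07, adjusted p = 2.68e-09), and Cttn (cortactin), which stabilizes branches and is a known partner of p140Cap, was at 300.1 ± 12.3 CPM in mock and 393 ± 14.9 CPM in p140Cap (log2 fold change 0.39, SE 0.05, adjusted p = 2.66e-06), both in edgeR's quasi-likelihood test. Others of these lists were not called, such as Brk1 (-0.07, adjusted p = 0.268), Abi2 (-0.08, adjusted p = 0.329), Gmfb (-0.08, adjusted p = 0.196) and Coro1c (-0.11, adjusted p = 0.056), given as log2 fold changes. Gmfg, a relative of Gmfb, was called higher (0.57, adjusted p = 3.99e-05). Called genes went both ways, with 10 nucleation factors higher and 4 lower, and 8 turnover factors higher and 9 lower. Arpin and Cttn were picked from these, so no common direction is read from them.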
